A study of Mus musculus with 12 samples.

Results

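The genes described here are 9 members of the phosphoinositide 3-kinase (PI3K), Akt and FoxO pathway: Foxo1, Foxo3, Foxo4, Irs2, Pik3ip1, Pik3cd, Pik3r1, Pik3ap1 and Akt1. They were taken by symbol from a table of 50559 genes, and all 9 were found and passed the filter on low counts. The cells were bone marrow-derived macrophages, grown in culture from the marrow of C57BL/6 mice, and their transcripts were counted by RNA sequencing. Of 12 libraries, 6 came from cells given house dust mite (HDM) allergen for 1 h and 6 from cells given vehicle for the same time. No genotype, transgene or further agent is named for either group, and the sources used here give no age, sex or pooling of animals. Whether the 6 libraries of a group stem from different animals or dishes is not in the labels, and p-values therefore cover only the spread between these libraries, which may be technical.

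PI3K makes a phosphorylated membrane lipid that recruits the kinase Akt. Active Akt phosphorylates the FoxO transcription factors, which then leave the nucleus, so that their target genes lose an activator. In macrophages the pathway is driven by growth factor and Toll-like receptors and is known for restraining or shaping inflammatory output. Most of this control is exerted on proteins, and the values below are transcript levels only.

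Reads per library ran from 19.69 M to 119.7 M. The first principal component of log2 CPM (counts per M reads) (42.2% of the variance) separated numbers 5 and 6 from numbers 1 to 4 in either treatment. The 8 macrophage markers summed to 16460 to 20940 CPM over the 12 libraries. Lists of dendritic cell, neutrophil, lymphocyte, mast cell with granulocyte and erythroid markers each summed to at most 6.638 CPM, with Tpsb2, Mcpt8, Fcer1a, Hbb-bs and Hba-a1 among those at 0 reads. The 6 markers of stroma and endothelium summed to a mean of 38.34 (HDM) and 37.39 CPM (vehicle) in numbers 5 and 6. In numbers 1 to 4 the means were 12.27 and 12.23 CPM, and Kdr alone made up most of each sum. Of these 6 markers 4 were tested, and with the library number as a block 2 of them, Col1a1 and Col1a2, fell with HDM. Both were near the floor, at means of 0.45 and 0.47 CPM with HDM and 1.11 and 0.93 CPM with vehicle. Neither was called without the block. Kdr and Cdh5 had log2 fold changes above 0 with the block (0.12 each) and were not called. These are bulk libraries, in which fewer cells of a type and less RNA per cell cannot be told apart.

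After 1 h of HDM, Pik3r1 rose, and it was the only member called in the fit that compares the groups alone (edgeR's quasi-likelihood test, adjusted p under 0.05 over all 13530 tested genes). That is 1 of 9 members called higher, where 2.9% of all tested genes were, and 0 of 9 called lower, where 2.47% were (5.37% in either direction). At an unadjusted p under 0.05 there were 3 members, where 14% of all tested genes were. Of the other tools limma-voom called 1 member (5.76% of all tested genes) and DESeq2 called 2 (7.06%). A further fit took the library number as a block, which compares each HDM library with the vehicle library of its number. This pairing was chosen from the data and is not in the labels. With the block, Irs2, Pik3cd and Pik3r1 rose and Foxo4 and Pik3ap1 fell. That is 3 of 9 members called higher, where 7.9% of all tested genes were, and 2 of 9 called lower, where 6.81% were (14.7% in either direction). The median size of a log2 fold change was 0.12 over the 9 members, above the 0.06 over all tested genes, though small in absolute size. The members were chosen with earlier results of these data known, so these shares and this median are not independent evidence.

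**Figure D1:**
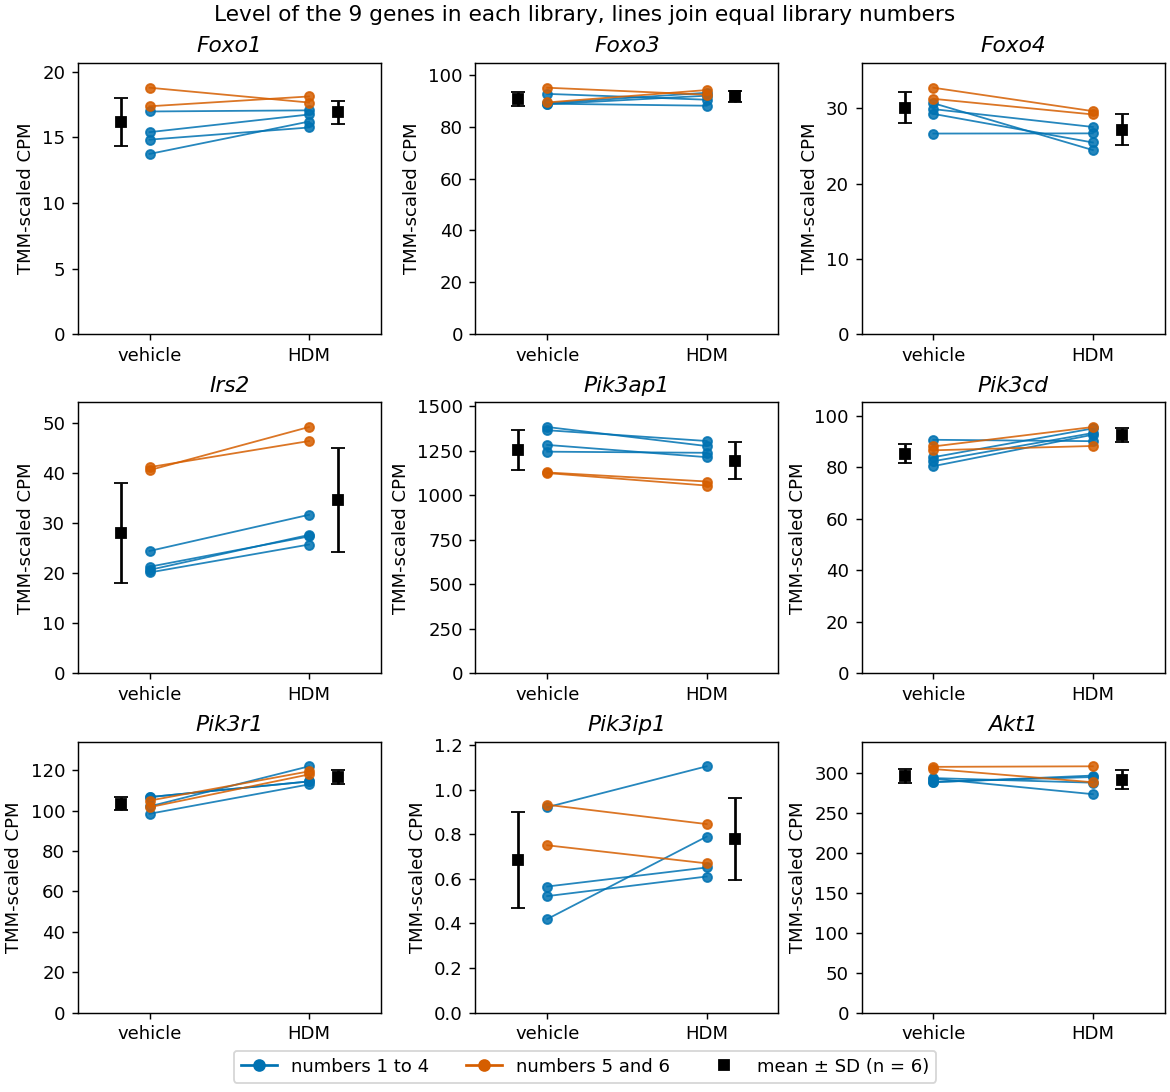
Level of each gene in TMM-scaled CPM (vertical axes, from 0) in the vehicle and HDM libraries, with lines joining libraries of equal number, blue for numbers 1 to 4 and orange for 5 and 6, and black squares for the mean ± SD of 6 libraries. Pik3r1 is the only gene whose groups do not overlap, and Irs2 rises along all 6 lines from starting levels that differ between the colours.

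Levels differed widely between the members. Per kb of merged exon (GENCODE release M21 lengths, which may not be the annotation the authors counted on), the vehicle mean was highest for Pik3ap1, at 280.2 ± 24.99 TMM-scaled CPM per kb (SD, n = 6), followed by Akt1 at 109.9 ± 3.06. Pik3cd (16.05 ± 0.716), Pik3r1 (13.69 ± 0.432) and Foxo3 (12.25 ± 0.355) came next. Foxo4 was at 9.51 ± 0.653, Irs2 at 4.44 ± 1.59 and Foxo1 at 1.87 ± 0.215. Pik3ip1 was lowest, at 0.232 ± 0.0730. Among vehicle libraries no gene's range overlapped that of the next in this order. The order was the same with HDM, though there the ranges of Foxo4 (7.73 to 9.37) and Irs2 (4.07 to 7.78) overlapped. Among the 3 FoxO members, Foxo3 transcripts were thus the most abundant and Foxo1 the least in these macrophages. Foxo6 is not a member and was not among the tested genes.

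Irs2 and Pik3ap1 encode adaptors that bring PI3K to activated receptors. IRS2 links the insulin, IGF and interleukin-4 receptors to PI3K, and the Pik3ap1 product BCAP does so for Toll-like receptors and the B cell receptor. Irs2 is also a known FoxO target gene. Its upstream sequence and that of Pik3r1 are shown here because these are the 2 members that were higher with HDM in all 6 numbers. The 250 bases before the start site are from RefSeq (GRCm38.p6), 5′ to 3′ on the strand of the gene, with capitals for matches to the motifs searched.
Irs2, chr8:11008930-11009179, minus strand: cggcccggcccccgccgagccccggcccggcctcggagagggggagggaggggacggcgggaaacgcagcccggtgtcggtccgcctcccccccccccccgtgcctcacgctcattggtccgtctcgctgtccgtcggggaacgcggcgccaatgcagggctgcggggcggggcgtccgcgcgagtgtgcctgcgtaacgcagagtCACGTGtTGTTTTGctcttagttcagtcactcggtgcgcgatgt
Pik3r1, upstream start, chr13:101768218-101768467, minus strand: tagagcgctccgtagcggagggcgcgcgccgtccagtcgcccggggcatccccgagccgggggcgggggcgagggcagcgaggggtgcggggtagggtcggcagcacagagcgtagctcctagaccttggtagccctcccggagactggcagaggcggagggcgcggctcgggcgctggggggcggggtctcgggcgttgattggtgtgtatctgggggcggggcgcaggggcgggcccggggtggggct
Pik3r1, downstream start, chr13:101692631-101692880, minus strand: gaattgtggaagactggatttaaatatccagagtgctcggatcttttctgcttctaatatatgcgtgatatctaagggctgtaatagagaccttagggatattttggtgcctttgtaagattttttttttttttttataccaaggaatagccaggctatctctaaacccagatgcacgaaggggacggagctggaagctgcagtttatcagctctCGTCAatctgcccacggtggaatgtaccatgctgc
The motifs, each searched on both strands, were the FoxO site TGTTTAC, the insulin response element core TGTTTTG, the cAMP response element TGACGTCA with its short form TGACG (which every full element also matches) and the E box CACGTG. The Irs2 window held the insulin response element core 37 bases before the start and an E box 44 bases before it. Of 32851 RefSeq windows of this length, 5.56% held the first and 6.02% the second. The window of the downstream Pik3r1 start held 1 short cAMP response element form, CGTCA on this strand, which 17.8% of all windows held, and that of its upstream start held none of the motifs. The exact FoxO site TGTTTAC, in 3.17% of windows, was found among the members at 1 of the 2 Akt1 starts, 161 bases before it. The E box was also in the window of Pik3ap1, 172 bases before the start, and Pik3ap1 was lower with HDM in all 6 numbers. The short cAMP response element form was also in the window of Foxo3, 64 bases before the start. RefSeq windows were matched for 8 of the 9 members. A match describes the letters of the window only, and no binding was measured.

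With HDM, Irs2 was at 27.66, 25.74, 31.68, 27.36, 49.22 and 46.41 CPM in libraries 1 to 6. With vehicle it was at 20.67, 20.16, 24.45, 21.30, 40.60 and 41.20 CPM. Every HDM library lay above the vehicle library of its number, while libraries 5 and 6 of both groups lay above all others, so the groups overlap. The group means of 34.68 ± 10.4 and 28.06 ± 10.06 CPM (SD, n = 6 each) differed by 0.31 ± 0.24 (SE) on the log2 scale, which edgeR did not call (adjusted p = 0.726). With the number block the log2 fold change was 0.32 ± 0.04 (adjusted p = 5.02e-06), a 1.25-fold rise, and it was called with each of the 6 numbers left out. Within numbers 1 to 4 edgeR without the block gave 0.37 (adjusted p = 0.00508) and within numbers 5 and 6 it gave 0.23 (adjusted p = 0.00187). A separate edgeR fit on all libraries with the number block held an interaction term for the difference in effect. It was -0.16 ± 0.06 SE (5 and 6 minus 1 to 4, adjusted p = 0.477). Without regard to treatment, Irs2 averaged 47.82 and 40.9 CPM (HDM and vehicle) in numbers 5 and 6 against 28.11 and 21.64 in numbers 1 to 4. The summed stroma and endothelium markers moved with the same split, but Kdr made up most of that sum. Kdr reached 37.36 CPM with HDM and 36.45 with vehicle, while Col1a1, Col1a2 and Cdh5 each stayed at or below 1.97 CPM. Any part of these markers in the level of Irs2 was not tested.

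Pik3ap1 was the most abundant member per kb. With HDM its 6 libraries held 1240, 1215, 1278, 1306, 1078 and 1056 CPM. With vehicle they held 1246, 1284, 1384, 1366, 1129 and 1126 CPM. The HDM library was the lower of its number in 6 of 6 cases, by a log2 ratio of 0.007 to 0.116 in size, but the groups overlap. HDM libraries 5 and 6 lay below all vehicle libraries, and vehicle libraries 3 and 4 above all HDM libraries. On the log2 scale the difference was -0.07 ± 0.07 SE (adjusted p = 0.86 in edgeR), and with the number block -0.07 ± 0.02 (adjusted p = 0.0266). That call held only without number 1 (adjusted p = 0.0412) and was lost without number 2, 3, 4, 5 or 6, with adjusted p of 0.057, 0.132, 0.0979, 0.0618 and 0.072. Here libraries 5 and 6 lay below the others, opposite to Irs2, at means of 1067 and 1127 CPM (HDM and vehicle) against 1260 and 1320 in numbers 1 to 4. The summed macrophage markers were lower there too (16850 and 16550 CPM against 18790 and 19290). Lyz2 made up most of that sum, at means of 11510 CPM with HDM and 11600 with vehicle over all numbers. Any part of these markers in the level of Pik3ap1 was not tested.

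Pik3r1 and Pik3cd encode 2 parts of a PI3K prominent in leukocytes, the common regulatory subunit and the delta catalytic subunit. With HDM, Pik3r1 was at 113.0, 122.0, 114.5, 114.5, 119.5 and 118.0 CPM in libraries 1 to 6. With vehicle it was at 98.49, 102.1, 106.8, 106.7, 105.0 and 101.7 CPM. The lowest HDM library lay above the highest vehicle library, so the groups do not overlap. Among all tested genes, 4.39% had groups that do not overlap, 2.32% with HDM the higher. The rise was 1.13-fold, or 0.18 ± 0.03 (SE) on the log2 scale (means 116.9 ± 3.47 and 103.5 ± 3.27 CPM, SD, n = 6 each, adjusted p = 0.00287 in edgeR). The levels showed no split by library number: with HDM the means were 116.0 CPM in numbers 1 to 4 and 118.7 in numbers 5 and 6, and with vehicle 103.5 and 103.4.

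Pik3cd went the same way by less. Its HDM libraries held 95.11, 90.18, 92.68, 93.34, 95.67 and 88.31 CPM, and its vehicle libraries 83.95, 90.71, 80.48, 82.39, 88.13 and 86.63 CPM. It was higher with HDM in 5 of 6 numbers, and the exception was number 2. Between the groups this came to 0.12 ± 0.03 (SE) on the log2 scale (means 92.55 ± 2.85 and 85.38 ± 3.81 CPM, adjusted p = 0.0729 in edgeR), and with the number block 0.12 ± 0.03 (adjusted p = 0.0145), a call that held with each of the 6 numbers left out. Without vehicle library 2 the comparison of the groups alone also called it (0.13, adjusted p = 0.0419), as did DESeq2 (adjusted p = 0.0299).

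Pik3ip1 encodes a membrane protein that binds and inhibits PI3K and, like Irs2, is described as a FoxO target. It was close to the limit of detection, with 393 reads over the 12 libraries and 18 to 95 per library. With HDM it was at 0.789, 0.610, 1.10, 0.651, 0.845 and 0.669 CPM, and with vehicle at 0.420, 0.523, 0.921, 0.566, 0.932 and 0.750 CPM. It was higher with HDM in numbers 1 to 4 and lower in numbers 5 and 6. The log2 fold change of 0.20 ± 0.22 SE was not called (adjusted p = 0.903 in edgeR), and its approximate 95% interval of -0.29 to 0.69 allows a change of either sign. Numbers 5 and 6 alone gave -0.09.

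Akt1 encodes the kinase at the centre of the pathway and was second in level per kb. With HDM it was at 287.3, 273.0, 296.2, 294.4, 307.8 and 287.9 CPM, and with vehicle at 293.1, 292.4, 287.8, 288.4, 307.1 and 304.5 CPM. Of the 6 numbers 3 were higher and 3 lower with HDM. The groups differed by -0.02 ± 0.03 (SE) on the log2 scale (adjusted p = 0.962 in edgeR), with an approximate 95% interval of -0.10 to 0.05. These values rest on 5900 to 34582 reads per library.

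**Figure D2:**
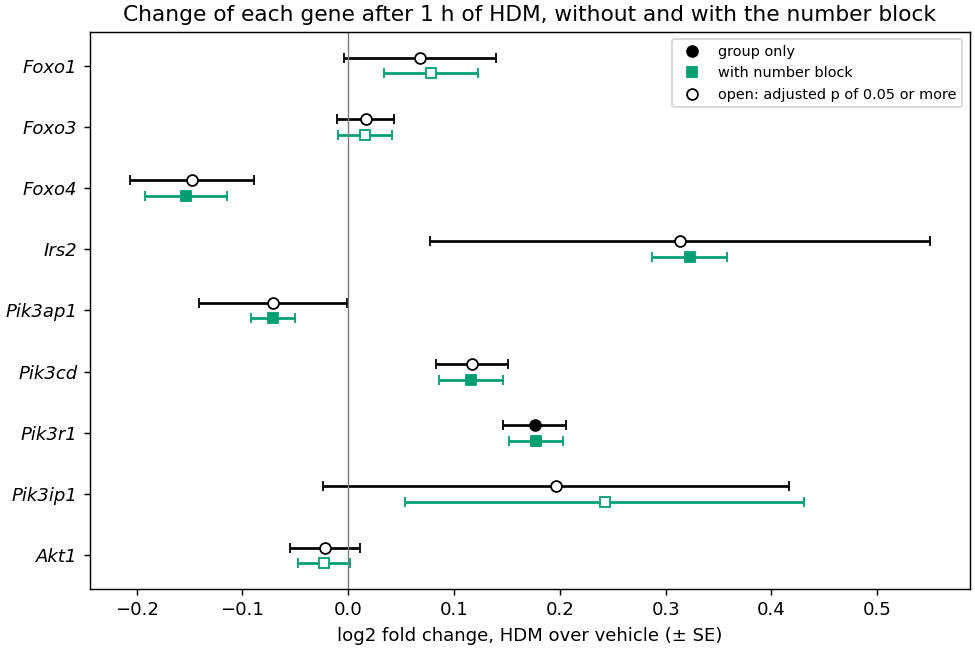
Log2 fold change of each gene (horizontal axis, HDM over vehicle) with its SE, from the fit on groups alone (black circles) and the fit with the library number as a block (green squares), filled where the adjusted p is under 0.05. Pik3r1 is filled in both, and Irs2, Pik3cd, Foxo4 and Pik3ap1 are filled only with the block, at nearly equal estimates.

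The 3 FoxO members encode forkhead transcription factors that Akt inactivates, and they differed in what was seen. Foxo4 was at 25.45, 24.44, 27.51, 26.66, 29.62 and 29.18 CPM with HDM. It was at 29.25, 30.67, 29.88, 26.64, 32.73 and 31.25 CPM with vehicle. It was lower with HDM in 5 of 6 numbers and level in number 4 (log2 ratio 0.001), and the groups overlap. On the log2 scale the groups differed by -0.15 ± 0.06 (SE) (means 27.14 ± 2.04 and 30.07 ± 2.06 CPM, adjusted p = 0.237 in edgeR), and with the number block -0.15 ± 0.04 (adjusted p = 0.0121). That call was lost without number 1 (adjusted p = 0.0646) or number 2 (adjusted p = 0.0571).

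Foxo3 varied little, with a coefficient of variation of 2.34% with HDM and 2.9% with vehicle. Its HDM libraries held 88.15, 93.16, 92.03, 90.47, 94.21 and 92.41 CPM, and its vehicle libraries 88.94, 89.11, 88.75, 92.73, 89.42 and 95.10 CPM. The log2 fold change was 0.02 ± 0.03 SE (adjusted p = 0.972 in edgeR), with an approximate 95% interval of -0.04 to 0.08. Its sign turned with unscaled library totals (-0.003).

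Foxo1 was the least abundant FoxO gene. It was at 15.76, 16.21, 17.07, 16.75, 17.67 and 18.13 CPM with HDM and at 14.83, 13.74, 16.98, 15.41, 18.80 and 17.38 CPM with vehicle. The vehicle libraries spread more widely (coefficient of variation 11.5%, against 5.23% with HDM) and their range encloses all 6 HDM values. The log2 fold change was 0.07 ± 0.07 SE (adjusted p = 0.885 in edgeR), with an approximate 95% interval of -0.09 to 0.23.

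**Figure D3:**
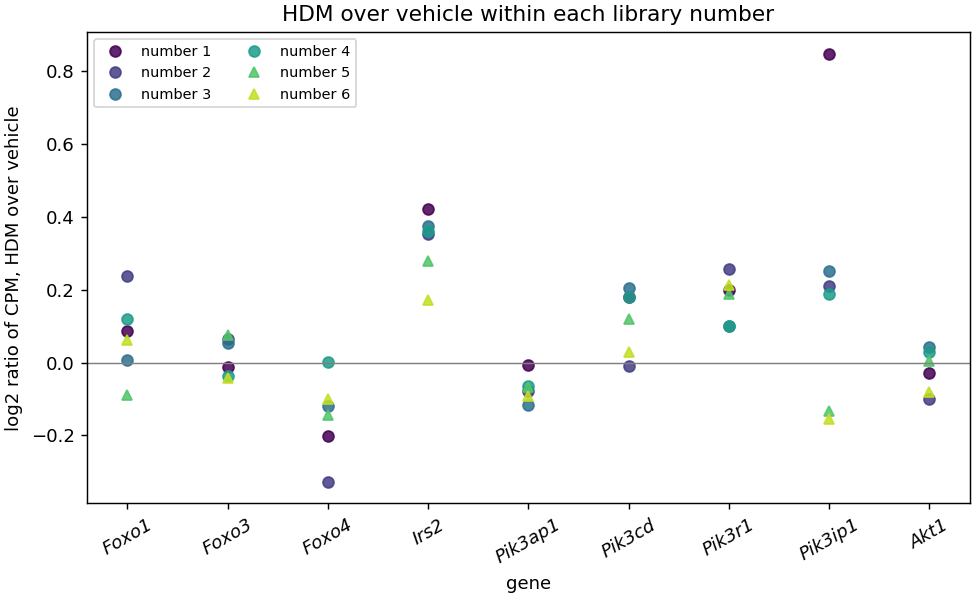
Log2 ratio of CPM, HDM over vehicle, within each library number (vertical axis) for the 9 genes, with circles for numbers 1 to 4 and triangles for 5 and 6. All 6 points lie above 0 for Irs2 and Pik3r1 and below 0 for Pik3ap1, while Foxo3 and Akt1 have 3 on either side.

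Over all tested genes, 8.98% were higher and 8.95% lower with HDM in all 6 numbers. The interaction term called 0 of the 9 members as different in effect between numbers 5 and 6 and numbers 1 to 4 (edgeR, adjusted p 0.477 to 0.994), where 0.473% of all tested genes were called. Irs2 alone had an unadjusted p under 0.05 (0.0263), as did 9.14% of all tested genes.

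The genes most like 4 of the members in pattern were found by Pearson's r of log2 CPM over the 12 libraries, among tested genes of at least 1 CPM. For Pik3r1 they were Rasgef1b (r = 0.955), Cpeb2 (0.949) and Arl13b (0.948). For Foxo4 they were Gabarapl1 (0.923), Grpel1 (0.918) and Nuak2 (0.915). For Foxo1 they were Ddx6 (0.957), Dr1 (0.950) and Xpr1 (0.947), and for Foxo3 Proser1 (0.850), Rfx3 (0.825) and Usp40 (0.825). The libraries share the treatment and the split by number, which enter every r, so these values describe likeness only.

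The rest of the pathway was read from 6 lists of 112 genes, of which 100 were tested. Of the 100, 7 rose and 5 fell in edgeR, or 12% where 5.37% of all tested genes were called, and with the number block 19 rose and 12 fell (31%, against 14.7%). Of the 12 calls made without the block, 10 were in the list of FoxO target genes. The median log2 fold change over the 100 was 0.01, against -0.0048 over all tested genes. The lists were drawn up with earlier results of these data known, so their counts are not independent evidence of a direction.

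Upstream of Akt, 0 of 16 tested genes of receptors, adaptors and other PI3K subunits were called, where 5.37% of all tested genes were. At an unadjusted p under 0.05 in edgeR there were 0, where 14% of all tested genes were. With the block 1 rose (6.25% of the list, against 14.7% of all tested genes). This was Pik3cb, the gene of the beta catalytic subunit (0.12 ± 0.03 SE, adjusted p = 0.00738), chosen for mention by its value. The alpha subunit gene Pik3ca differed by 0.07 ± 0.04 (SE) on the log2 scale (adjusted p = 0.535), Pik3r2 at -0.04 ± 0.03 (0.727) and Gab3 at -0.13 ± 0.11 (0.803). Of 12 tested phosphoinositide phosphatases, which remove phosphates from these membrane lipids, 0 were called and 0 had an unadjusted p under 0.05 (against the same 5.37% and 14%). With the block 2 rose (16.7% of the list, against 14.7% of all tested genes). They were Inpp5e (0.11 ± 0.04, adjusted p = 0.047) and Inppl1, the gene of SHIP2 (0.08 ± 0.03, adjusted p = 0.0428). Inpp5e kept its call in 1 and Inppl1 in 2 of the 6 fits that leave out a number. The third phosphatase by p, Inpp5k, was at -0.07 ± 0.05 (adjusted p = 0.629).

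At the level of Akt and related kinases, 0 of 12 tested genes were called, where 5.37% of all tested genes were. At an unadjusted p under 0.05 in edgeR there were 2, where 14% of all tested genes were. With the block 3 rose and 2 fell (41.7% of the list, against 14.7%). Sgk1 encodes a kinase that shares substrates with Akt, FoxO factors among them. It ran from 157.6 to 349.8 CPM with HDM (median 171.6) and from 114.6 to 226 with vehicle (median 128.6). Each HDM library exceeded the vehicle library of its number. Its log2 fold change was 0.54 ± 0.27 SE (adjusted p = 0.411), and with the block 0.51 ± 0.03 (adjusted p = 5.61e-09). Sgk3, a relative, was at 0.11 ± 0.04 (adjusted p = 0.102 without and 0.0151 with the block, lost without number 2 at 0.0616). Plekho1, whose product binds Akt and restrains it, was at -0.15 ± 0.06 (adjusted p = 0.295 without and 0.000258 with the block). Trib3, which encodes an Akt-binding pseudokinase and was named after its value was seen, was at -0.17 ± 0.04 with the block (adjusted p = 0.00381).

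Downstream, 1 of 17 tested genes of the mTOR complexes and their regulators fell and 0 rose (5.88%, against 5.37% of all tested genes). At an unadjusted p under 0.05 in edgeR there were 2, where 14% of all tested genes were. With the block 1 rose and 2 fell (17.6%, against 14.7%). The gene called in both fits was Mlst8, which encodes a subunit common to both mTOR complexes, at 20.1 ± 1.05 CPM with vehicle and 16.02 ± 1.51 with HDM (-0.33 ± 0.06 SE on the log2 scale, adjusted p = 0.00687). All 6 HDM libraries (13.63 to 18.12 CPM) lay below the vehicle libraries (18.99 to 21.13). Eif4ebp1, the gene of a translational repressor that mTOR inactivates, was at -0.15 ± 0.05 (adjusted p = 0.133 without and 0.00503 with the block) and Rptor at -0.05 ± 0.03 (adjusted p = 0.436). The rise with the block, named after its value was seen, was that of Rictor, which encodes a defining subunit of mTOR complex 2 (0.13 ± 0.04, adjusted p = 0.0484). Of 17 tested FoxO regulators 1 rose (5.88%, against 5.37% of all tested genes). This was Mdm2, which encodes a ubiquitin ligase of p53 that also acts on FoxO proteins. It rose from 266.4 ± 9.95 to 363.3 ± 8.42 CPM (0.45 ± 0.03, adjusted p = 9.68e-07). Stk3, the gene of a kinase that moves FoxO into the nucleus, was at 0.14 ± 0.04 (adjusted p = 0.0612 without and 0.00649 with the block). It was called without HDM library 5 (adjusted p = 0.0282) or vehicle library 3 (0.0479). Ep300, the gene of an acetyltransferase, was at 0.17 ± 0.05 (adjusted p = 0.102 without and 0.000268 with the block) and was called without HDM library 1 (0.0337) or vehicle library 5 (0.0409). With the block 3 of the 17 rose (Mdm2, Stk3 and Ep300) and 2 fell, or 29.4% against 14.7% of all tested genes. The falls, named after their values were seen, were Sirt1, a deacetylase gene (-0.17 ± 0.04, adjusted p = 0.00379), and Skp2, the gene of a ubiquitin ligase subunit (-0.18 ± 0.06, adjusted p = 0.0416).

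Known targets of the FoxO factors changed in both directions. Of 26 tested, 6 rose (Klf2, Cdkn1a, Cdkn1b, Bcl6, Cited2 and S1pr1) and 4 fell (Bbc3, Gadd45a, Txnip and Atg14). That is 38.5% of the list, where 5.37% of all tested genes were called. With the block 9 rose and 6 fell (57.7%, against 14.7%). The list was drawn up with earlier results of these data known, so these shares are not independent evidence. The median log2 fold change of the list was 0.03. Many of these genes answer to other factors too: Cdkn1a, Bbc3 and Mdm2 above are textbook p53 targets, and which factor acts on them was not tested.

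Cited2, which encodes a transcriptional coregulator, went from 32.86 to 48.77 CPM with vehicle (median 37.97) to 82.2 to 117.8 with HDM (median 89.02), a rise of 1.28 ± 0.12 (SE) on the log2 scale (adjusted p = 2.29e-05). Klf2, a Krüppel-like factor gene, had 2.66 to 3.78 CPM with vehicle (median 3.20) and 3.82 to 10.14 with HDM (median 8.19). It rose by a log2 fold change of 1.20 ± 0.22 (adjusted p = 0.00578). Separate fits gave 1.38 in numbers 1 to 4 and 0.64 in numbers 5 and 6. The interaction term of the blocked fit had an adjusted p of 0.0419. Cdkn1a, the gene of the cell cycle inhibitor p21, rose from 386.8 ± 18.3 to 535.3 ± 16.9 CPM (0.47 ± 0.04, adjusted p = 3.32e-06). Bcl6, which encodes a transcriptional repressor, rose by 0.26 ± 0.04 (adjusted p = 0.00289). The other 2 rises, named after their values were seen, were Cdkn1b at 0.47 ± 0.09 (adjusted p = 0.00799) and S1pr1 at 0.13 ± 0.03 (adjusted p = 0.0176).

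All 4 falls left the groups apart. Bbc3, the gene of the pro-apoptotic protein PUMA, ran from 20.09 to 23.39 CPM with vehicle (median 21.8) and from 7.20 to 10.51 with HDM (median 8.89), a difference of -1.30 ± 0.08 (SE) on the log2 scale (adjusted p = 3.19e-07). Txnip, which encodes a thioredoxin-binding brake on glucose uptake, ran from 192.1 to 265.7 CPM with vehicle and from 90.57 to 134.1 with HDM (-1.04 ± 0.11, adjusted p = 6.76e-05). Gadd45a, a growth arrest gene, was at -0.74 ± 0.14 (adjusted p = 0.00777) and Atg14, an autophagy gene, at -0.34 ± 0.06 (adjusted p = 0.00668). In each of these 4 genes all HDM libraries lay below all vehicle libraries, as in 2.07% of all tested genes.

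Fbxo32, the gene of the ubiquitin ligase atrogin, was named after its value was seen. It had the largest estimated fall of the list without being called by the comparison of groups alone. It ran from 18.53 to 86.89 CPM with vehicle (median 22.68) and from 8.53 to 27.95 with HDM (median 9.75). Each HDM library lay below the vehicle library of its number. The log2 fold change was -1.44 ± 0.51 SE (adjusted p = 0.162 in edgeR), and with the block -1.37 ± 0.07 (adjusted p = 1.74e-10).

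**Figure D4:**
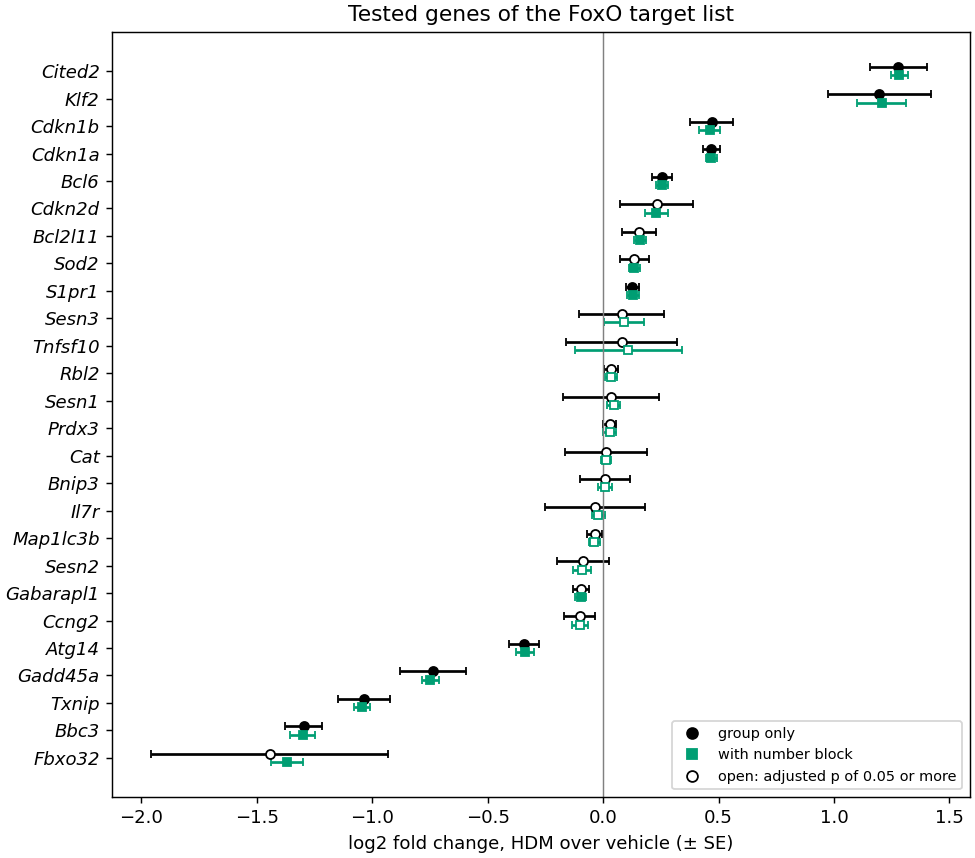
Log2 fold change (horizontal axis, HDM over vehicle) with its SE for the 26 tested genes of the FoxO target list, from the fit on groups alone (black circles) and with the number block (green squares), filled where the adjusted p is under 0.05. Cited2 and Klf2 stand at the top and Fbxo32, Bbc3 and Txnip at the bottom, with smaller differences between them.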

How the data were processed

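RNA was made into libraries with a stranded kit that selects mRNA, per the labels' protocols. The authors deposited raw counts per gene, unscaled, with 1 column per library. Tools named in the submitters' processing notes are STAR 2.6.0c, featureCounts 2.0.6, Subread, cutadapt 4.5, Trim Galore 0.6.10 and FastQC 0.12.1. Both GRCm38 and mm39 are named there as builds, with no role. Strand setting and annotation: not given in the sources used here. Reads of overlapping genes therefore cannot be told apart. In GENCODE M21 the spans of Foxo1, Irs2, Pik3ip1, Pik3cd, Akt1 and Pik3r1 overlap those of other genes, none of them protein-coding. Those of them listed in the count table held at most 22 reads in all.

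Counts were tested with edgeR 4.0.16 (R 4.3.3, limma 3.58.1): quasi-likelihood F test, two-sided, TMM factors, filterByExpr defaults, group as the only term, and Benjamini-Hochberg adjustment over 13530 tested genes. Levels are CPM with TMM factors. The SE is the absolute log2 fold change over the square root of F, and 95% intervals use 10 residual degrees of freedom. Ratios within a number use log2 CPM with a prior count of 2. The test was checked on simulated data that held a group effect but no split by library number. That check therefore does not cover the split or the fit with the block.

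Both groups carry numbers 1 to 6. Deviations from the group means correlated between equal numbers at 0.467, 0.367, 0.387, 0.479, 0.624 and 0.672. All exceed 0.1, so for the fit with the block the numbers were taken to pair the libraries. This choice was made from the data, since the labels are silent. The split of numbers 5 and 6 from 1 to 4 enters each of these correlations. They therefore cannot tell pairing by single number from that split. Only numbers 2 and 6 of the HDM libraries correlated best with their own number, the others with a neighbour. The alternatives were other scalings, filters and tools, the number block, each library left out, and the split between 1 to 4 and 5 and 6.

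Members and lists were chosen with earlier results of these data known. Named genes are the 9 members and, per list, called genes up to 8 by smallest p and otherwise the 3 with the smallest p. Values of some listed genes are not reported here.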

Additional observations from a re-analysis of the deposited data

Results flagged for a closer look

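Chance marks about 1 in 20 groups of 6 libraries as holding a stray value. Ep300 was marked in HDM library 1, at 133.1 CPM, below the other HDM libraries. Rptor was marked in vehicle library 2, at 105.7 CPM, above the other vehicle libraries. None of the 9 members was marked in either group.

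The effect of HDM differed between numbers 5 and 6 and numbers 1 to 4 for 2 named FoxO target genes, by the interaction term in edgeR with the number block (0.473% of all tested genes were called). For Klf2 the term was -0.79 ± 0.17 SE (adjusted p = 0.0419). Separate fits gave it a log2 fold change of 1.38 in numbers 1 to 4 and 0.64 in numbers 5 and 6. For Fbxo32 the term was -0.47 ± 0.08 (adjusted p = 0.00609), and the separate fits gave -1.14 and -1.64. This split was seen in the data and is not in the labels.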

How the results depend on the processing

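Pik3r1 was called under all 8 other scalings, filters and tools, with each of the 12 libraries left out (log2 fold change 0.16 to 0.19) and with the block. Members called numbered 2 with a filter at a mean of 1 CPM (711 of 11433 genes in all) and 2 with DESeq2 (955 of 13530). They numbered 3 in numbers 1 to 4 (1076 of 13650 genes in all) and 2 in numbers 5 and 6 (1139 of 13449). With single libraries left out they numbered 1 to 2 (561 to 694 genes in all and 12 to 13 other pathway genes). With the replicate block there were 5 members, 31 other pathway genes and 1990 genes in all, against 1, 12 and 727 without it. Blocked fits gave 4, 30 and 1741 in numbers 1 to 4 and 2, 19 and 1176 in numbers 5 and 6. With each number left out in turn they gave 3 to 4, 27 to 29 and 1644 to 1799. These blocked subsets were chosen after seeing the data. Without the block, numbers 1 to 4 gave 21 other pathway genes and numbers 5 and 6 gave 1139 genes in all. All genes called split into 393 up and 334 down with TMM, 360 and 408 with upper-quartile factors, and 347 and 413 with unscaled totals. Signs turned for Foxo3 with unscaled totals (-0.0032), Akt1 without HDM library 2 (range over libraries left out -0.039 to 0.0024), and in numbers 5 and 6 for Pik3ip1 (-0.086, and -0.15 with the block) and Pik3ca (-0.0076, and -0.011 with the block). With the block in numbers 5 and 6 they also turned for Foxo1 (-0.0035) and Gab3 (0.020). S1pr1 lost its call without a filter (adjusted p = 0.0895) and in numbers 5 and 6 (0.42). The causes were not tested. Pik3ip1 rests on 18 to 95 reads per library.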
